A study of Drosophila melanogaster with 28 samples.

Results

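Total RNA of Drosophila S2 cells was compared with total RNA of 4–5 hr embryos, gene by gene, to see which RNAs identify the cell line and which are specific to the embryo. S2 cells are a macrophage-like line derived from late embryos, here obtained from a commercial supplier, grown at 28 °C in serum-free medium to which 10% fetal bovine serum was added, and not transfected. The reference was w1118 embryos collected 4–5 hr after egg laying from flies kept at 25 °C. Both libraries were inputs of the PABP immunoprecipitations, that is RNA of the cleared lysate before any pull-down, and both carried worm RNA that had been spiked in. Of the 16862 fly genes in the table, 7207 reached 5 FPKM (a level scaled to the length of the transcript and to the number of mapped fragments) in at least 1 of the 2 libraries, and these 7207 genes are the subject here. Each was described by the log2 ratio of its FPKM in S2 cells to its FPKM in embryos. With 1 library per condition there was no replicate error and no test, so that every difference is one between 2 libraries. In such bulk samples a lower level can mean fewer cells of a type or less RNA per cell, and these cannot be told apart. S2 cells were lysed in a buffer with the detergent NP-40 and embryos in one without detergent, so the lysis and the cell type cannot be told apart.

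Further total RNA libraries of the series served as a check on the pair. They were S2 cells transfected with an eGFP-ME31B plasmid, w1118 embryos at 0–1, 1–2, 2–3 and 3–4 hr, which were all quantified in the same table, and 4–5 hr embryos of the eGFP-ME31B strain, which were quantified in another table. Depth, estimated from the FPKM of single reads, came to about 11 M reads in the S2 library and 12.5 M reads in the 4–5 hr w1118 library, so that 1 read in a 2000-nt transcript was worth 0.0505 FPKM in S2 cells and 0.0442 FPKM in embryos. Levels below about 3 reads are therefore given as levels, with no fold. Worm RNA took 15.0% of the FPKM of the S2 library and 35.7% of that of the embryo library, and only 0.00216% in the transfected S2 cells.

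At 4–5 hr the embryo has ended its dependence on maternal RNA, has gastrulated and is allotting its cells to ectoderm, mesoderm, gut and nervous system. Embryonic macrophages, the plasmatocytes, arise from head mesoderm at about this age. They are specified by the GATA factor Serpent, engulf dying cells and microbes, respond to PDGF/VEGF-related ligands through the receptor Pvr, and later secrete most of the basement membrane of the animal.

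In S2 cells 1047 genes were at least 4-fold higher than in embryos (14.5% of the 7207 genes), and in embryos 1464 genes were at least 4-fold higher than in S2 cells (20.3%). The other 4696 genes (65.2%) lay within 4-fold. Of the genes higher in S2 cells 59 were listed at 0 in the embryo, and of the genes higher in embryos 301 were listed at 0 in S2 cells. At 16-fold the counts were 384 genes higher in S2 cells and 564 higher in embryos. The genes higher in S2 cells made up 12.3% of the fly FPKM of S2 cells and 0.617% of that of embryos. The genes higher in embryos made up 6.88% in S2 cells and 26.1% in embryos.

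The balance between the 2 directions depended on the scale. Over the 6847 genes above 0 in both libraries, the median log2 ratio was −0.46, so the typical gene was lower in S2 cells, with quartiles at −1.55 and 1.02. Centred on this median, the counts were 1342 genes higher in S2 cells and 1029 higher in embryos. With the FPKM of all fly genes scaled to the same sum they were 1707 and 851, and with that of protein-coding genes 1861 and 791. These scalings put 56.6%, 66.7% and 70.2% of the calls on the S2 side, against 41.7% on the deposited scale. A scaling by the worm spike-in, by which the authors normalized input samples, was not run here. Worm FPKM summed to 120352 in the S2 library and 643744 in the embryo library. Such a scaling would raise every ratio of S2 cells over embryos, and directions given below could change with it. Ratios below are on the deposited scale, and a list's median is also given relative to −0.46.

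**Figure D1:**
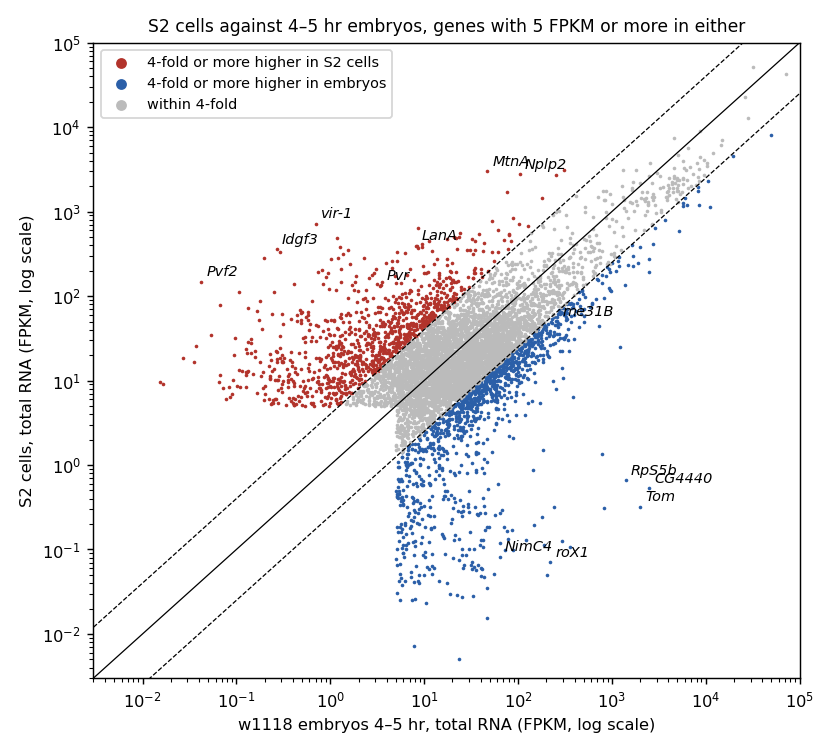
FPKM of each gene in S2 cells (vertical axis) against w1118 embryos at 4–5 hr (horizontal axis), both on log scales, for 6837 genes; the solid line marks equal levels and the dashed lines 4-fold. Genes higher in S2 cells (red) and in embryos (blue) spread over several orders of magnitude, and 360 genes with a value of 0 and 10 with a value under 0.003 FPKM are not drawn.

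Markers of the cell types that either sample could hold were examined first. Of 19 plasmatocyte markers, 14 reached 5 FPKM, 11 were at least 4-fold higher in S2 cells and 2 at least 4-fold higher in embryos, with a median log2 ratio of 3.23 (3.69 relative to the median gene). These counts, and those of every list below, stand beside the 14.5% and 20.3% of all genes called higher in S2 cells and in embryos. None of 6 crystal cell and lamellocyte markers reached 5 FPKM, and their levels summed to 2.31 FPKM in S2 cells and 12.5 FPKM in embryos. The same was true of 5 fat body, 8 ovary and 6 testis markers, which summed to 0.0881, 0.544 and 0.182 FPKM in S2 cells and to 2.95, 0.790 and 1.90 FPKM in embryos. Of 7 neuron markers elav alone passed 5 FPKM, at 6.13 FPKM in S2 cells and 6.17 FPKM in embryos, while nSyb, Syt1 and Rdl were listed at 0 in S2 cells. Of 3 glia markers 2 reached 5 FPKM and 1 was at least 4-fold higher in S2 cells, and they summed to 50.4 FPKM in S2 cells and 25.4 FPKM in embryos. These were loco, at 45.3 FPKM in S2 cells and 23.9 FPKM in embryos, and moody, at 5.13 FPKM in S2 cells and 0.835 FPKM in embryos, while the defining marker repo was listed at 0 in S2 cells and at 0.633 FPKM in embryos.

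The transcription factors and receptors of the macrophage programme were prominent in S2 cells. Serpent (srp), the GATA factor that specifies hemocytes, stood at 25.3 FPKM in S2 cells against 5.01 FPKM in embryos, a 5.05-fold difference, but at 11 FPKM in eGFP-ME31B embryos and 11.3 FPKM in w1118 embryos at 3–4 hr, levels within 4-fold of S2 cells. Its cofactor u-shaped (ush) was at 24.9 FPKM in S2 cells and 4.67 FPKM in embryos. The zinc-finger factor zfh1 was at 121 FPKM in S2 cells and 0.965 FPKM in embryos, 126-fold. All 3 were as high or higher in the transfected cells, where they reached 36.1, 37.0 and 154 FPKM. The growth factor receptor Pvr was at 134 FPKM in S2 cells and 3.45 FPKM in embryos, 38.9-fold, and one of its ligands, Pvf2, had the highest ratio among protein-coding genes with 20 FPKM or more in S2 cells that were above 0 in embryos. Pvf2 (chromosome 2L, 7069536 to 7084635) gave 147 FPKM in S2 cells and 177 FPKM in transfected S2 cells, against 0.0424 FPKM in w1118 embryos, a level worth about 1 read. Receptor and ligand were thus both abundant in the line.

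Phagocytic receptors were divided. The Nimrod-family receptor eater was at 16.3 and 22.6 FPKM in S2 cells and transfected S2 cells, and was listed at 0 in all 5 w1118 libraries. The CD36-like receptor croquemort (crq), which binds apoptotic cells, was at 72.5 FPKM in S2 cells and 10.4 FPKM in embryos, 6.95-fold, and its relative pes was at 45 FPKM in S2 cells and 9.71 FPKM in embryos. Draper (drpr), another receptor for dying cells, differed less, at 12.9 FPKM in S2 cells and 5.42 FPKM in embryos. Several markers by which plasmatocytes are commonly recognised were low or at 0 in the line. Hemolectin (Hml) was at 0.264 FPKM in S2 cells, the Hemese gene (He) at 1.43 FPKM and the scavenger receptor Sr-CI at 0.35 FPKM, while NimC1, the P1 antigen, was listed at 0 in both S2 libraries.

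The opposite pattern was seen for the plasmatocyte markers NimC4 and gcm, and for Sr-CII, which belongs to the list of microbial recognition genes below. The receptor NimC4 (also called Simu), which mediates uptake of apoptotic cells, was at 0.0819 FPKM in S2 cells and 63.7 FPKM in embryos, and at 0.344 FPKM in transfected S2 cells. The factor gcm, needed for plasmatocyte and glial fates, was listed at 0 in S2 cells and at 23.9 FPKM in embryos, and the scavenger receptor Sr-CII was listed at 0 in S2 cells and at 17.8 FPKM in embryos. Both were also present in eGFP-ME31B embryos, at 16.5 and 31.4 FPKM. Against both embryo strains, ush, zfh1, Pvr, crq and eater were at least 4-fold higher in S2 cells, whereas Hml, He, NimC1 and Sr-CI stayed under 5 FPKM in the line.

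**Figure D2:**
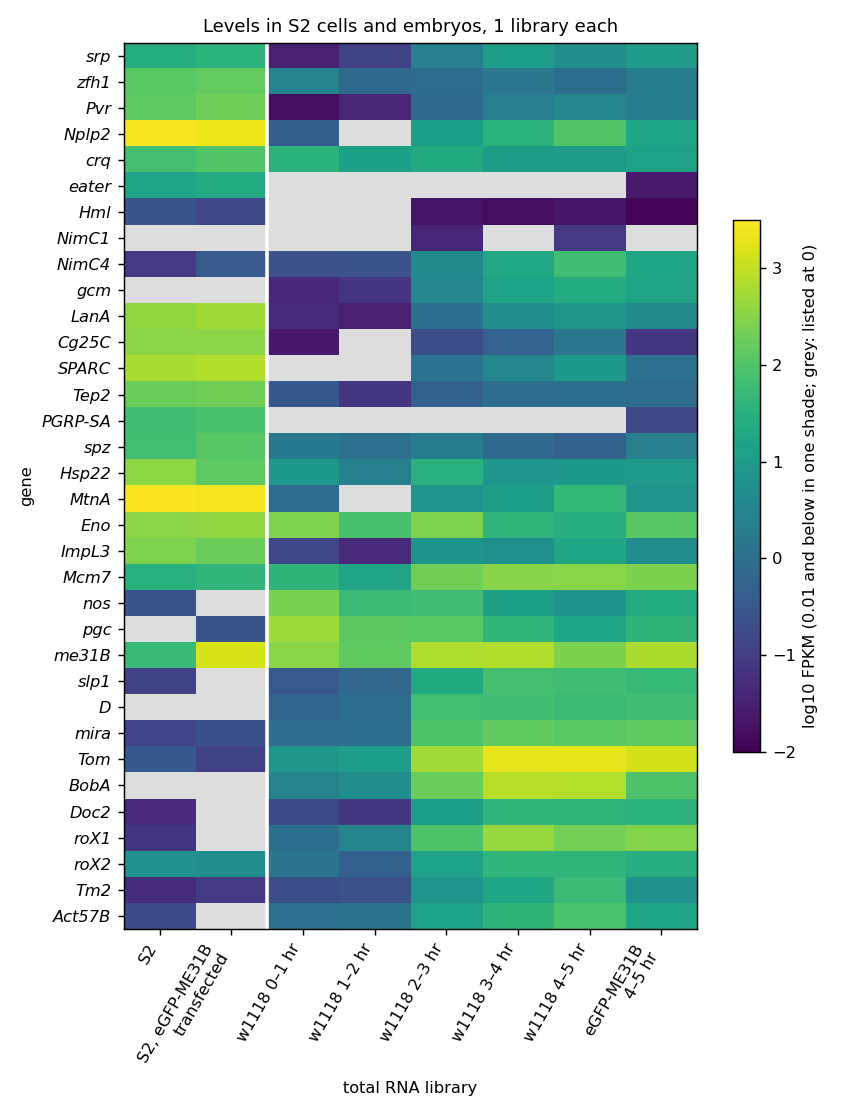
Levels of 34 list genes (rows) in 8 total RNA libraries (columns: S2 cells, transfected S2 cells, w1118 embryos at 5 ages and eGFP-ME31B embryos at 4–5 hr) as log10 FPKM, with grey for genes listed at 0. Macrophage and matrix genes in the upper rows are bright in both S2 columns, except Hml, NimC1, NimC4 and gcm, which are dark or grey there. Patterning and Bearded genes in the lower rows are dark or grey in the S2 columns and bright in embryos after 2 hr.

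Extracellular matrix genes showed the largest shift of the lists on the S2 side. Of 17 matrix and integrin genes, 10 reached 5 FPKM, 9 were at least 4-fold higher in S2 cells and 1 was at least 4-fold higher in embryos, with a median log2 ratio of 5.64 (6.10 relative to the median gene). The 2 collagen IV chains, Cg25C (now Col4a1) and vkg, were at 356 and 281 FPKM in S2 cells and at 1.54 and 1.22 FPKM in embryos, 231-fold and 230-fold. The 3 laminin chains LanA, LanB1 and LanB2 were at 393, 322 and 257 FPKM in S2 cells and at 8.18, 6.20 and 4.51 FPKM in embryos. The chains of each complex were thus at like levels within a library, and the 3 laminin chains differed between the libraries by 48- to 57-fold (LanA and LanB2). The collagen-binding glycoprotein SPARC was at 647 FPKM in S2 cells and 8.52 FPKM in embryos, 75.9-fold. Papilin (Ppn) and peroxidasin (Pxn), which cross-link or organise the matrix, were 9.83- and 8.99-fold higher in S2 cells, but Pxn, at 8.43 FPKM in S2 cells and 3.69 FPKM in eGFP-ME31B embryos, was within 4-fold against that strain. Cg25C, vkg, Ppn and Pxn are also among the plasmatocyte markers above, so the calls of the matrix and plasmatocyte lists overlap.

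Other parts of the basement membrane were mixed. Nidogen (Ndg), a linker between laminin and collagen, was at 0.483 FPKM in S2 cells and 2.33 FPKM in embryos, under the minimum. The perlecan gene trol was higher in S2 cells, at 4.17 FPKM against 0.5 FPKM in embryos, 8.35-fold, but was also under the minimum. In transfected S2 cells trol was at 10.4 FPKM. Of the integrins, the beta chain mys was at 144 FPKM in S2 cells and 5.64 FPKM in embryos, 25.5-fold, whereas the alpha chains mew and if, its partners in muscle and gut, were at 0.767 and 0.152 FPKM in S2 cells and 6.43 and 3.71 FPKM in embryos. With both S2 libraries set against both 4–5 hr embryo libraries, 8 matrix genes remained at least 4-fold higher in S2 cells. The scaffold of collagen and laminin was thus abundant in the line and its alpha integrins were scarce.

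Microbial recognition genes were also on the S2 side. Of 25 genes, 14 reached 5 FPKM, 10 were at least 4-fold higher in S2 cells and 2 at least 4-fold higher in embryos, with a median log2 ratio of 2.98 (3.44 relative to the median gene). The thioester protein Tep2, an opsonin, was at 187 FPKM in S2 cells and 0.950 FPKM in embryos, 196-fold. PGRP-SA, a secreted peptidoglycan recognition protein of the Toll pathway, was at 65.8 FPKM in S2 cells and listed at 0 in embryos, and PGRP-LC, the membrane receptor of the IMD pathway, was at 9.95 FPKM in S2 cells and 0.510 FPKM in embryos. The beta-glucan binding proteins GNBP1, GNBP2 and GNBP3 were at 12.9, 29.4 and 7.28 FPKM in S2 cells and at 2.22, 0.618 and 1.29 FPKM in embryos. GNBP1, at 4.23 FPKM in eGFP-ME31B embryos, was within 4-fold against that strain. The intracellular receptor PGRP-LE ran the other way, at 0.448 FPKM in S2 cells and 5.37 FPKM in embryos, and was at 14.6 FPKM in 0–1 hr embryos.

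The signalling proteins downstream of these receptors were closer to even. Of 23 Toll, IMD and JAK-STAT genes, 20 reached 5 FPKM, 4 were at least 4-fold higher in S2 cells and 1 at least 4-fold higher in embryos, with a median log2 ratio of 0.71 (1.17 relative to the median gene). These are 20% and 5% of the list, against 14.5% and 20.3% of all genes. The Toll ligand spz was at 69.2 FPKM in S2 cells and 0.480 FPKM in embryos, 144-fold. The NF-kappaB factors Dif and dl, which Toll signalling releases into the nucleus, were 16.1- and 16.2-fold higher in S2 cells, at 8.72 and 22.5 FPKM against 0.541 and 1.39 FPKM in embryos. Their inhibitor cact was the one called in the other direction, at 23.2 FPKM in S2 cells and 123 FPKM in embryos. The receptor Tl itself was at 4.86 FPKM in S2 cells and 9.70 FPKM in embryos. The IMD components imd, Fadd, Dredd, key, IKKbeta and Tak1 all lay within 2.48-fold, while Tab2 and the NF-kappaB factor Rel were 3.19- and 3.9-fold higher in S2 cells.

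Antimicrobial peptide genes, the effectors of these pathways, were detected in S2 cells at low to moderate levels. Of 16 genes, 6 reached 5 FPKM, and these 6 were listed at 0 in the embryo library: CecA1 (41.6 FPKM in S2 cells), CecC (46.8 FPKM), DptB (10.2 FPKM), Drs (10.0 FPKM), CecA2 (6.62 FPKM) and CecB (6.38 FPKM). The cecropin genes are close copies of one another, so how reads were split among them is uncertain. In transfected S2 cells the 4 cecropins stood at 56.1, 75.2, 18.7 and 16.3 FPKM in the order CecA1, CecC, CecA2, CecB, and Drs and DptB at 2.66 and 4.12 FPKM. The attacins AttA and AttB were at 0.702 and 1.66 FPKM in S2 cells and at 0 in embryos.

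**Figure D3:**
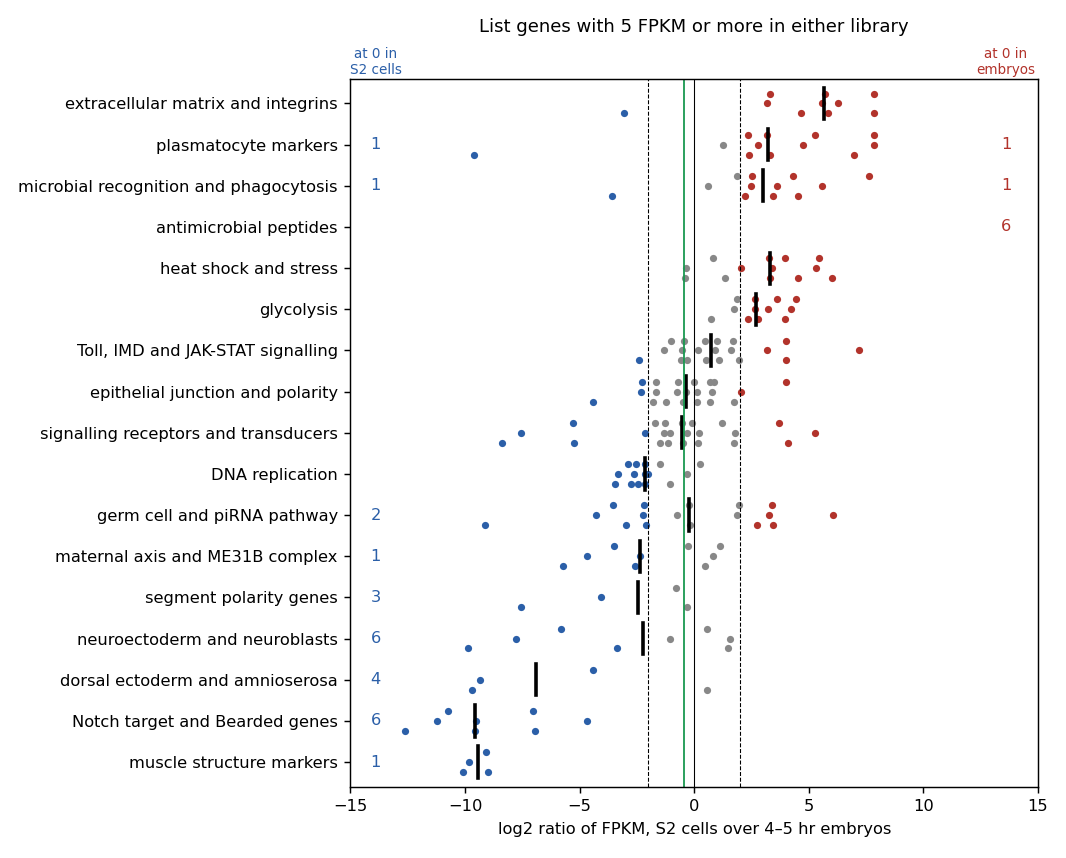
Log2 ratio of FPKM in S2 cells over 4–5 hr embryos for each gene with 5 FPKM or more in 17 lists; black bars are list medians (3 or more genes above 0 in both), the green line the median of all genes, the dashed lines 4-fold, and the numbers at the margins the genes listed at 0 in one library. Matrix, plasmatocyte and recognition genes lie to the right, and Notch target, dorsal ectoderm and muscle genes to the left.

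Genes of glycolysis were higher in S2 cells as a group. All 12 reached 5 FPKM, 9 were at least 4-fold higher in S2 cells and none in embryos, with a median log2 ratio of 2.71 (3.17 relative to the median gene). Pyruvate kinase (PyK) was at 240 FPKM in S2 cells and 12.8 FPKM in embryos, 18.8-fold, enolase (Eno) at 356 and 28.9 FPKM, and lactate dehydrogenase (ImpL3) at 271 and 17.5 FPKM. Glucose-6-phosphate isomerase (Pgi) differed least, at 70.5 FPKM in S2 cells and 41.8 FPKM in embryos. Several of these mRNAs were also abundant in the youngest embryos: at 0–1 hr PyK was at 193 FPKM, Eno at 279 FPKM and Gapdh2 at 996 FPKM, against 331 FPKM for Gapdh2 in S2 cells. ImpL3 was not, at 0.145 FPKM at 0–1 hr. Against eGFP-ME31B embryos, in which Eno was at 116 FPKM, 6 of the 12 were at least 4-fold higher in S2 cells.

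Heat shock and stress genes behaved alike. Of 16 genes, 13 reached 5 FPKM, 9 were at least 4-fold higher in S2 cells and none in embryos, with a median log2 ratio of 3.32 (3.78 relative to the median gene). The metallothionein MtnA, which binds metal ions, was among the most abundant mRNAs of the line, at 3000 FPKM in S2 cells and 46.4 FPKM in embryos, 64.6-fold. The small heat shock genes Hsp22, Hsp23 and Hsp26 were at 367, 612 and 556 FPKM in S2 cells and 8.54, 61.3 and 23.9 FPKM in embryos, and Hsp83, which encodes the fly HSP90, was at 837 and 87.6 FPKM. The 2 S2 libraries differed here: Hsp22, Hsp23 and Hsp26 were at 137, 284 and 176 FPKM in transfected cells, while Hsp83 was at 779 FPKM. With Hsp26 at 104 FPKM in eGFP-ME31B embryos, its level in transfected cells was within 4-fold of theirs. Hsp26 and Hsp83 were also abundant in w1118 embryos at 0–1 hr, at 873 and 554 FPKM, whereas Hsp23 was at 14.7 FPKM there. The transcription factor Hsf was at 37.2 FPKM in S2 cells and 48.6 FPKM in embryos. S2 cells were kept at 28 °C and flies at 25 °C, and the part of the temperature in these values was not tested.

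Genes of DNA replication lay on the embryo side. All 15 reached 5 FPKM and 11 were at least 4-fold higher in embryos, none in S2 cells, with a median log2 ratio of −2.16 (−1.70 relative to the median gene). The replicative helicase subunits Mcm2, Mcm3, Mcm5, Mcm6 and Mcm7 were at 24.5, 20.4, 25.3, 31.5 and 30.6 FPKM in S2 cells, against 153, 205, 173, 140 and 339 FPKM in embryos. The sliding clamp PCNA was at 80.9 FPKM in S2 cells and 333 FPKM in embryos, and the ribonucleotide reductase subunit RnrS at 83.5 and 611 FPKM. Its partner RnrL was at 61.3 FPKM in S2 cells and 52.0 FPKM in embryos. The count depended on the libraries and the scale: 8 of 15 were at least 4-fold higher in embryos than in transfected S2 cells, 3 in both embryo libraries against both S2 libraries, and 4 with fly FPKM scaled to the same sum.

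Cytosolic ribosomal protein genes were lower in S2 cells but seldom by 4-fold. Of 93 genes, 89 reached 5 FPKM, 12 (13.5%) were at least 4-fold higher in embryos and none in S2 cells. Among all genes 20.3% and 14.5% were called in these directions. The median log2 ratio of the list was −1.23 (−0.77 relative to the median gene). Together the ribosomal protein genes made up 172714 FPKM in S2 cells and 441808 FPKM in embryos. RpS5b, a paralog of RpS5a known from the germ line, stood apart from the rest, at 0.657 FPKM in S2 cells and 0.582 FPKM in transfected S2 cells, against 1400 FPKM in embryos, 2130-fold. Of 47 proteasome genes, 32 reached 5 FPKM and only 1 passed 4-fold, in S2 cells, with a median log2 ratio of −0.61 that changed sign to 0.16 with equal fly sums and to 0.30 with equal protein-coding sums.

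Patterning genes of the embryo were for the most part undetected in S2 cells. Of the gap and head gap genes, 5 of 11 reached 5 FPKM; Kr, kni, tll and hkb were listed at 0 in S2 cells and at 25.7, 5.88, 5.97 and 6.03 FPKM in embryos. The fifth, cnc, was at 16.1 FPKM in S2 cells and 4.17 FPKM in embryos, just within 4-fold. Of 9 pair-rule genes 5 reached 5 FPKM, and 4 were on the embryo side: run, odd and slp2, listed at 0 in S2 cells, and slp1, at 0.119 FPKM in S2 cells and 64.9 FPKM in embryos. The remaining pair-rule gene, h (hairy), a repressor of the basic helix-loop-helix class, was at 59.7 FPKM in S2 cells and 70.2 FPKM in transfected S2 cells, against 1.47 FPKM in embryos, 40.6-fold.

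The segment polarity and homeotic genes gave the same picture. Of 10 segment polarity genes 7 reached 5 FPKM and 5 were at least 4-fold higher in embryos. En, inv and wg were listed at 0 in S2 cells, against 14.2, 21.0 and 12.3 FPKM in embryos, and hh was at 0.0414 FPKM, about 1 read, against 7.82 FPKM. The Hedgehog receptor ptc was within 4-fold, at 8.07 FPKM in S2 cells and 10.1 FPKM in embryos. Of 11 Hox genes and cofactors 4 reached 5 FPKM: Antp, Ubx and the cofactor hth were listed at 0 in S2 cells and at 5.58, 6.72 and 8.74 FPKM in embryos, whereas the cofactor exd was at 43.2 FPKM in S2 cells and 96.8 FPKM in embryos. The other Hox genes, lab, pb, Dfd, Scr, abd-A and Abd-B, were all listed at 0 in S2 cells and lay between 0.416 and 4.39 FPKM in embryos.

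Neural and dorsal fates were represented on the embryo side alone, with exceptions. Of 20 neuroectoderm and neuroblast genes 14 reached 5 FPKM, 10 were at least 4-fold higher in embryos and none in S2 cells. The proneural genes ac and l(1)sc were listed at 0 in S2 cells and at 63.3 and 82.0 FPKM in embryos, the Sox factor D at 0 and 56.5 FPKM, and the asymmetric-division adaptor mira was at 0.130 FPKM in S2 cells and 122 FPKM in embryos. Another Sox factor, SoxN, was present in the line at 19.6 FPKM, against 13.4 FPKM in embryos. Of 12 dorsal ectoderm genes 8 reached 5 FPKM and 7 were at least 4-fold higher in embryos. The T-box genes Doc1, Doc2 and Doc3 were at 0, 0.0484 and 0.0609 FPKM in S2 cells, against 36.9, 40.3 and 40.0 FPKM in embryos, while the GATA factor pnr was at 47.5 FPKM in S2 cells and 31.9 FPKM in embryos.

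Mesoderm genes were mixed. Of 15, 9 reached 5 FPKM, 4 (44.4%) were at least 4-fold higher in embryos and 1 (11.1%) in S2 cells. Among all genes these shares were 20.3% and 14.5%. The FGF receptor htl, the mesoderm determinant twi and the muscle factor Mef2 were expressed in both, at 15.2, 10.8 and 5.58 FPKM in S2 cells and 4.57, 9.65 and 9.04 FPKM in embryos. The heart and visceral factors tin and bap were at 0.149 and 0 FPKM in S2 cells and 21.5 and 8.46 FPKM in embryos. The one gene on the S2 side was nau, the fly MyoD homolog, at 17.4 FPKM in S2 cells and 22.9 FPKM in transfected S2 cells, against 0.235 FPKM in embryos.

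Muscle structure mRNAs were higher in embryos, at levels that differed between strains. Of 6 muscle structure markers 5 reached 5 FPKM and all 5 were at least 4-fold higher in embryos. Tropomyosin 2 (Tm2), troponin T (up), the myosin heavy chain (Mhc) and the muscle actin Act57B were at 0.0513, 0.0473, 0.0625 and 0.169 FPKM in S2 cells, against 56.0, 43.2, 33.6 and 85.9 FPKM in w1118 embryos. In eGFP-ME31B embryos of the same nominal age they were at 6.23, 5.34, 3.38 and 17.3 FPKM. The direction was the same with either strain, and the level in embryos was not.

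Notch target and Bearded-family genes lay far on the embryo side, with a median log2 ratio of −9.56 over the 8 genes above 0 in both libraries. S2 levels among these, such as those of Tom, Ocho and E(spl)mgamma-HLH, were worth fewer than 3 reads, so the size of this median is uncertain. With pseudocounts of 0.5 and 1 it was −7.86 and −6.92. Of 15 genes, 14 reached 5 FPKM and all 14 were at least 4-fold higher in embryos, also with the transfected S2 library, with eGFP-ME31B embryos and with fly FPKM scaled to the same sum. Their levels summed to 2.92 FPKM in S2 cells and 4144 FPKM in embryos. The Bearded-family genes Tom, BobA and Ocho lie close together on chromosome 3L between 14945499 and 14976040 and encode small inhibitors of Neuralized, a ubiquitin ligase that activates Notch ligands. Tom was at 0.320 FPKM in S2 cells and 1996 FPKM in embryos, Ocho at 0.124 and 297 FPKM, and BobA was listed at 0 in both S2 libraries and at 762 FPKM in w1118 embryos but 90.8 FPKM in eGFP-ME31B embryos. Among the E(spl) repressors, E(spl)mgamma-HLH was at 0.112 FPKM in S2 cells and 192 FPKM in embryos.

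Receptors and transducers of the main signalling pathways were called about as often as other genes. Of 24 such genes, 23 reached 5 FPKM, 3 were at least 4-fold higher in S2 cells and 5 at least 4-fold higher in embryos, with a median log2 ratio of −0.53 (−0.07 relative to the median gene). These are 13.0% and 21.7% of the list, against 14.5% and 20.3% of all genes, and the median was 0.24 with equal fly sums. The receptor N was at 8.18 FPKM in S2 cells and 19.9 FPKM in embryos, and its nuclear partner Su(H) at 3.58 and 10.1 FPKM, but the ligand Dl was at 0.102 FPKM in S2 cells and 34.1 FPKM in embryos, 335-fold. Neuralized (neur) lay at the 4-fold limit, at 6.78 FPKM in S2 cells and 27.1 FPKM in embryos. The EGF receptor Egfr was at 0.432 FPKM in S2 cells and 16.4 FPKM in embryos, the Wnt receptor fz at 0.181 and 7.13 FPKM, and the Hedgehog effector ci at 0.0890 and 16.9 FPKM. The 3 genes on the S2 side were Pvr, the insulin receptor InR, at 21.6 and 1.68 FPKM, and the ETS factor pnt, at 95.1 and 5.61 FPKM.

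Epithelial genes were nearly even. All 21 junction and polarity genes reached 5 FPKM, 2 were at least 4-fold higher in S2 cells and 3 in embryos, with a median log2 ratio of −0.34 (0.12 relative to the median gene), which changed sign with the scaling. The polarity proteins aPKC, par-6, baz, scrib and l(2)gl were at 24.5, 29.6, 7.43, 14.7 and 41.1 FPKM in S2 cells and 40.7, 18.7, 17.4, 18.6 and 58.7 FPKM in embryos. E-cadherin (shg) was at 3.00 FPKM in S2 cells and 9.55 FPKM in embryos. N-cadherin (CadN) was listed at 0 in S2 cells and at 3.91 FPKM in embryos. Of 16 cell adhesion genes 7 reached 5 FPKM, none was at least 4-fold higher in S2 cells, and 3 were at least 4-fold higher in embryos: Nrt, trn and ed.

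Of 7 dosage compensation genes, which all reached 5 FPKM, 3 (42.9%) were at least 4-fold higher in embryos and none in S2 cells. Among all genes these shares were 20.3% and 14.5%. The dosage compensation complex, which raises transcription of the single male X chromosome, holds the MSL proteins and a roX RNA. Its male-limiting subunit msl-2 was at 18.5 FPKM in S2 cells and 15.7 FPKM in embryos, and msl-1, mle and mof were within 1.62-fold, whereas msl-3 was at 11 and 50.9 FPKM. The roX RNAs differed between the libraries, with roX2 at 6.18 FPKM in S2 cells and 39.6 FPKM in embryos, and roX1 (chromosome X) at 0.0711 FPKM in S2 cells and at 0 in transfected S2 cells, against 219 FPKM in embryos and 300 FPKM in eGFP-ME31B embryos. Of 9 sex determination genes, the X-linked elements sc, run and sisA, which report the number of X chromosomes early in development, were on the embryo side, and Sxl was at 21.2 FPKM in S2 cells and 42.6 FPKM in embryos. A gene-level FPKM does not separate the male and female forms of Sxl.

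Among protein-coding genes on the X chromosome, 15.1% of 1141 were at least 4-fold higher in S2 cells and 13.9% at least 4-fold higher in embryos, with a median log2 ratio of −0.34. On the 4 large autosome arms the medians lay between −0.66 (2L) and −0.37 (3L), and the shares at least 4-fold higher in embryos between 18.7% and 23.1%. The 50 genes of chromosome 4 had a median of 0.12 against w1118 embryos but −1.46 against eGFP-ME31B embryos, a change of sign between the strains.

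Hormone genes separated into response and synthesis. Of 19 ecdysone-response genes 8 reached 5 FPKM and 3 were at least 4-fold higher in S2 cells: the nuclear receptor Eip75B at 16.4 FPKM in S2 cells and 0.393 FPKM in embryos, the insulin-binding protein ImpL2 at 260 and 5.18 FPKM, and ftz-f1 at 13.3 and 3.00 FPKM. The receptor EcR was at 11.7 and 4.2 FPKM. Against eGFP-ME31B embryos, with 22.5 FPKM of ftz-f1, 2 of these calls were left. Of 8 synthesis genes 4 reached 5 FPKM, spo, dib, sad and sro, and all 4 were on the embryo side, at 8.47, 24.7, 16.1 and 12.7 FPKM in embryos, with the first 3 listed at 0 in S2 cells and sro at 0.182 FPKM.

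Maternal and germ-line RNAs were not uniformly absent from the line. Of 25 germ cell and piRNA genes 19 reached 5 FPKM, 5 (26.3%) were at least 4-fold higher in S2 cells and 9 (47.4%) at least 4-fold higher in embryos. Among all genes these shares were 14.5% and 20.3%. The germ-line determinants pgc and vas were at 0 and 0.142 FPKM in S2 cells and 18.4 and 3.23 FPKM in embryos. The piRNA pathway genes rhi and tej were at 0.0661 and 0 FPKM in S2 cells, against 37.5 and 19.6 FPKM in embryos. The Argonaute proteins piwi, aub and AGO3 were at 0.501, 1.61 and 1.14 FPKM in S2 cells, against 5.90, 12.5 and 3.05 FPKM in embryos. Other genes of the list ran the other way. The genes tud, krimp and fs(1)Yb and the helicase armi were at 76.5, 30.8, 8.28 and 24.9 FPKM in S2 cells and 7.02, 2.92, 0.126 and 3.73 FPKM in embryos. The co-chaperone shu was at 16.6 FPKM in S2 cells and 1.72 FPKM in embryos. Against eGFP-ME31B embryos, with 17.1 FPKM of krimp and 11.1 FPKM of armi, the calls of these 2 genes were lost and 3 genes were at least 4-fold higher in S2 cells.

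Of 14 genes of the maternal axis and the ME31B repressor complex, 10 reached 5 FPKM and 6 were at least 4-fold higher in embryos, none in S2 cells. The helicase me31B was at 50.7 FPKM in S2 cells and 262 FPKM in embryos, while its partners tral and cup were at 48.1 and 13.9 FPKM in S2 cells, against 58.9 and 6.44 FPKM. The posterior determinant nos was at 0.271 FPKM in S2 cells, against 6.95 FPKM in 4–5 hr and 253 FPKM in 0–1 hr embryos. The PNG kinase subunits plu and gnu were at 0 and 0.112 FPKM in S2 cells, against 45.4 and 5.92 FPKM in embryos. The translational repressor smg was at 6.26 FPKM in S2 cells and 37.2 FPKM in embryos.

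Pvf2 headed the 12 highest ratios on the S2 side. Among the others, the imaginal disc growth factors Idgf3 and Idgf1, secreted chitinase-like proteins whose genes lie side by side on chromosome 2L (16450907 to 16455194 and 16445278 to 16446793), were at 359 and 79.0 FPKM in S2 cells, against 0.269 and 0.0675 FPKM in embryos. The virus-induced gene vir-1 was at 719 FPKM in S2 cells and 0.704 FPKM in embryos, 1021-fold. The other 8 of the top 12, CG34330, CG1092, CG3251, CG13004, CG11929, CG11400, CG4259 and CG10232, lay between 26 FPKM (CG13004) and 333 FPKM (CG1092) in S2 cells and between 0.0371 and 0.288 FPKM in embryos. CG3251 and CG11929 also lie side by side, at 2L 4688965 to 4690702 and 4682677 to 4687232. In transfected S2 cells the 12 lay between 41.6 FPKM (CG13004) and 1003 FPKM (vir-1).

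A further set was listed at 0 in the 4–5 hr w1118 library. The highest protein-coding genes of this kind in S2 cells were CG14273 at 328 FPKM, cDIP at 246 FPKM, CG13117 at 144 FPKM, CG18557 at 109 FPKM and PGRP-SA at 65.8 FPKM. In eGFP-ME31B embryos CG13117 and PGRP-SA were at 0.140 and 0.146 FPKM and the others at 0. By level rather than ratio, Nplp2 led with MtnA, at 2766 FPKM in S2 cells and 104 FPKM in embryos, and the iron-storage protein Fer1HCH followed, at 1727 and 76.6 FPKM. The endoplasmic reticulum chaperones Pdi, Calr and ERp60, chosen after their values were seen, were at 706, 681 and 541 FPKM in S2 cells and 104, 128 and 79.5 FPKM in embryos.

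Bearded and E(spl) genes were 3 of the 12 highest ratios on the embryo side. Beside Tom, Ocho, RpS5b and E(spl)mgamma-HLH, the 12 held CG4440 (0.534 FPKM in S2 cells, 2487 FPKM in embryos), CG4500 (0.0494 and 202 FPKM), sala (0.106 and 355 FPKM), the synaptotagmin-like btsz (0.0154 and 46.4 FPKM), the Dpp target Dtg (0.0352 and 46.9 FPKM) and the POU factor nub (0.0285 and 33.4 FPKM). All these S2 levels were worth fewer than 6 reads. The other 2, pre-mod(mdg4)-W and Pbp49, overlap other genes on their strand and had estimates in S2 cells worth less than 1 read, so they are named only. Of the protein-coding genes listed at 0 in S2 cells the highest in embryos were BobA at 762 FPKM, CG13427 at 600 FPKM, CG13454 at 424 FPKM, VepD at 181 FPKM and the insulin-like peptide Ilp4 at 148 FPKM, and all 5 were also at 0 in transfected S2 cells.

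Non-coding genes added 1 prominent embryonic RNA. CR43887 (chromosome 3L, 11693135 to 11693661) was listed at 0 in S2 cells and at 0.330 FPKM in transfected S2 cells, against 11149 FPKM in w1118 and 6252 FPKM in eGFP-ME31B embryos. Of 168 annotated long or other non-coding genes, 47 (28.0%) were at least 4-fold higher in S2 cells and 66 (39.3%) at least 4-fold higher in embryos, more in both directions than among protein-coding genes (14.4% and 19.6%). On the S2 side CG32368 was at 147 FPKM in S2 cells and 1.85 FPKM in embryos, CR43967 at 136 and 17.0 FPKM, CR45018 at 70.1 and 2.42 FPKM, and CR44526 at 48.9 and 0 FPKM. CR40469 was at 239 FPKM in S2 cells and 0 in w1118 embryos, but at 2514 FPKM in eGFP-ME31B embryos, and so was not low in embryos in general. The other non-coding genes named by rule on the embryo side, MRE16, snoRNA:U3:9B, snoRNA:Psi28S-2566 and snoRNA:Psi28S-291, were between 193 and 1447 FPKM in S2 cells and between 2461 and 11179 FPKM in embryos. In eGFP-ME31B embryos snoRNA:Psi28S-2566, snoRNA:Psi28S-291 and CR43967 were at 2869, 3246 and 38.0 FPKM, within 4-fold of S2 cells. MRE16 and snoRNA:U3:9B, at 980 and 7770 FPKM in that strain, remained at least 4-fold higher in embryos. Short RNAs moved between the S2 libraries: of 16 snRNA genes 6 were at least 4-fold higher in embryos than in S2 cells, and 14 than in transfected S2 cells.

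The ratio also moved with transcript length. The median log2 ratio was −1.59 for the 295 genes whose longest transcript is at least 300 and under 600 nt, and was higher in each longer class, up to 1.32 for the 214 genes of 8000 nt or more. In the same classes 13.2% and 34.6% of genes were at least 4-fold higher in S2 cells, and 46.8% and 5.61% at least 4-fold higher in embryos. Against eGFP-ME31B embryos the medians were −1.24 and 0.36, and between the 2 embryo strains (eGFP-ME31B over w1118) they were −0.30 and 0.76. The part of length in the ratios of the lists was not tested. The medians of the matrix and the Notch target lists, 5.64 and −9.56, lay beyond those of every length class. Setting them side by side does not separate the part of the list from that of length.

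**Figure D4:**
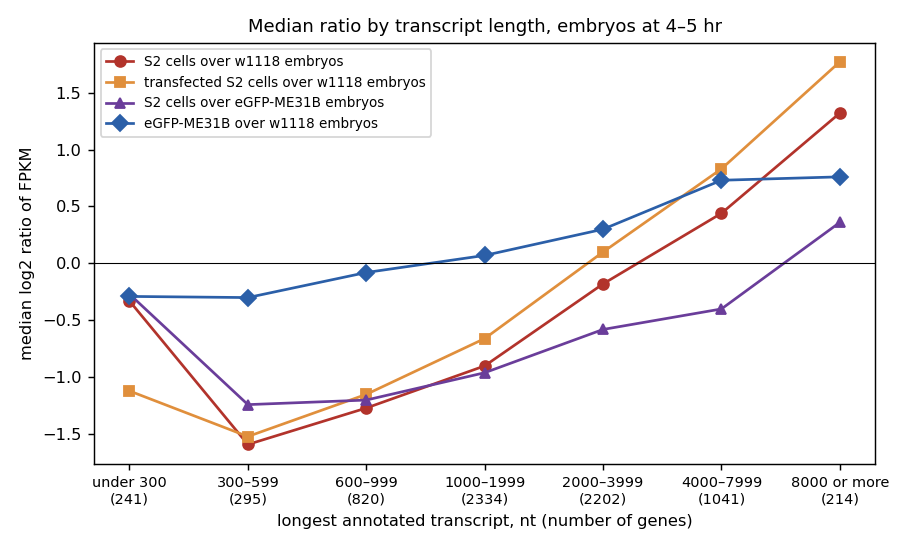
Median log2 ratio of FPKM (vertical axis) in 7 classes of longest annotated transcript (horizontal axis, number of genes in brackets) for S2 cells or transfected S2 cells over w1118 embryos, S2 cells over eGFP-ME31B embryos, and eGFP-ME31B over w1118 embryos. From 300 nt upward each line climbs, and the lines for S2 cells over w1118 embryos reach from −1.59 to 1.32 (untransfected).

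Both sides were checked against the second library of each kind. Between the 2 S2 libraries, Spearman's rho across 6812 genes was 0.98, and 196 genes differed by 4-fold or more, against 0.42 across 6847 genes between S2 cells and embryos. These are correlations across genes, which are not independent replicates. Between the w1118 and eGFP-ME31B embryos at 4–5 hr rho was 0.89 across 7051 genes, and 523 genes differed by 4-fold or more. In a comparison chosen after the data were seen, 699 were at least 4-fold higher in both S2 libraries than in both 4–5 hr embryo libraries, and 941 at least 4-fold higher in both embryo libraries. Against all 5 w1118 ages, 562 genes were at least 4-fold higher in both S2 libraries than at any age, and 218 were at least 4-fold higher at every age than in both S2 libraries. Fly FPKM summed to 302478 at 0–1 hr and 125101 at 1–2 hr, against 681451 in S2 cells. The count of 218 therefore depends on the low scale of these 2 ages. So does that of 562, for genes whose embryo level is highest at these ages. Of the 56 genes named by rank, level or limit, 11 overlap another gene on the same strand, among them Pvf2, sala, btsz, VepD and CR45018, and their levels are less certain. The genes nearest the limits were, at 5 FPKM, CR45641 and CG15625 inside (5.00 FPKM in S2 cells each), CG6928 outside (4.98 FPKM in S2 cells) and phm outside (0 in S2 cells and 4.99 FPKM in embryos), and at 4-fold, Ptp69D and CG13671 inside and CG14613 and snoRNA:Me28S-U1230 outside on the S2 side, and neur and gammaSnap1 inside and CG6674 and mRpL30 outside on the embryo side.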

How the data were processed

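Input RNA of S2 cells and of embryos was depleted of ribosomal RNA and sequenced as stranded libraries. The FPKM values were made by the authors and used as deposited; the submitters' processing notes name STAR 2.5.2a, Cufflinks 2.2.1, bcl2fastq 2.17, FastQC 0.11.5, R 3.1.2 and the builds dm6 and ce10, the second for the worm spike-in. No counts were used here, and depth was estimated from the lowest steps of FPKM in single-transcript genes of 1500 nt or more, with fragments taken as 200 nt. It covers counting error only.

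Genes with 5 FPKM or more in either library of the pair were kept, and a gene was called where the levels differed by 4-fold or more. A gene listed at 0 in one library counts as past the fold, and is given no ratio. No fold is given where the lower value was worth fewer than 3 reads. With 1 library per condition no test was made. Of 16862 fly genes, 16699 (99%) were matched to the Ensembl annotation of BDGP Release 6, from which chromosomes, positions and lengths were taken. Genes were named by rule: the 12 highest ratios on each side at 20 FPKM or more, the 5 highest protein-coding genes on each side listed at 0 in the other library, the 5 highest called non-coding genes of 200 nt or more on each side, the genes next to each limit, and list members. The members and the lists were chosen with earlier results of these data known. All 28 deposited columns had a sample. Alternatives were the minimum level, pseudocounts, other libraries, scalings, and protein-coding or longer genes only. Scripts were tested on simulated data and run in Python 3.11.15 with numpy 2.4.6, pandas 2.3.3 and matplotlib 3.10.9. A planned search of promoters for motifs was not run, since no promoter sequence was used here.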

Additional observations from a re-analysis of the deposited data

Results flagged for a closer look

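The helicase gene me31B stood at 1486 FPKM in S2 cells transfected with the eGFP-ME31B plasmid, against 50.7 FPKM in untransfected S2 cells, 29.3-fold. It was picked out because it lies in a library outside the pair from which the ratios were taken. The transfected gene and the endogenous gene are counted together in this value.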

How the results depend on the processing

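The count of genes at least 4-fold higher in S2 cells (1047) was 671 at a minimum of 20 FPKM, 1853 with no minimum, 1707 with fly FPKM scaled to the same sum and 1861 with protein-coding FPKM scaled to the same sum. The count of genes at least 4-fold higher in embryos (1464) was 2402 at a minimum of 1 FPKM, 965 at 20 FPKM, 4797 with no minimum, 851 and 791 under the scalings by fly and by protein-coding sums, and 941 with both S2 libraries against both 4–5 hr embryo libraries, a setting added after the data were seen. The median log2 ratio (−0.46) was 0.00 when centred, 0.38 with equal fly sums and 0.52 with equal protein-coding sums. Under the other settings run the counts stayed within 1.5 times. Of 28 list medians, 9 changed sign under at least 1 setting. That of the maternal axis and ME31B complex (−2.37), the only one of these that lay beyond 4-fold, was 0.78 with transfected S2 cells, where nos and gnu are at 0 and me31B is the transfected gene, and 0.27 with equal protein-coding sums. The dosage compensation, epithelial, proteasome, receptor, germ cell and snoRNA medians changed sign with equal fly sums (0.07, 0.43, 0.16, 0.24, 0.53 and 0.38), and the mesoderm and miRNA medians with eGFP-ME31B embryos (−0.83 and −0.78). None of 42 named genes changed sign in 392 comparisons, though 256 moved by more than 0.38, the SD of the log2 ratio between the 2 S2 libraries. The absence of sign changes is no check of stability, since many of these genes were named for extreme ratios in this pair. In addition, pseudocounts and gene filters cannot change the sign of a gene's ratio. The count of 256 is no measure of single genes either. Centring and the scalings by sums each shift all genes by the same amount, above 0.38, so all 42 moved under each. Gene filters leave a gene's ratio as it was. No paired analysis was possible because each condition had 1 library. Levels near 0.05 FPKM rest on about 1 read in a transcript of 2000 nt.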

Other observations

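Of 8 circadian clock genes, 3 reached 5 FPKM and all 3 were at least 4-fold higher in S2 cells. The activator cyc was at 11.8 FPKM in S2 cells and 1.67 FPKM in embryos, and the feedback factors Pdp1 and cwo at 18.5 and 18.9 FPKM in S2 cells against 0.293 and 2.09 FPKM in embryos. With cyc at 7.18 FPKM in eGFP-ME31B embryos, its call was lost against that strain, and 2 were left. The partner of cyc, Clk, was listed at 0 in S2 cells, and tim was at 0.0171 FPKM.

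Of 10 gut, trachea and epidermis genes, 4 reached 5 FPKM. The secretory factor CrebA was at 21 FPKM in S2 cells and 1.07 FPKM in embryos, and shn at 15.5 and 1.82 FPKM. The epidermal factor grh was at 0.244 FPKM in S2 cells and 7.83 FPKM in embryos.

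Protein-coding genes of chromosome 4 differed between the embryo strains, with a median log2 ratio of 1.56 (eGFP-ME31B over w1118), against 0.17 to 0.31 on the other arms.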
